A study of Mus musculus with 72 samples.

Results

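Insr, Igf1r, Irs1, Irs2, Pik3r1, Akt1, Akt2, Foxo1 and Grb10 carry the insulin and insulin-like growth factor (IGF) signal from the cell surface to the nucleus. They were taken by symbol from a table of islet gene expression, which held all 9 of them among its 14604 genes. The study sequenced islet RNA of male mice, given as 8 weeks old, of 3 inbred strains: BALB/cJ, C57BL/6J and DBA/2J. They had eaten a high-fat diet (HFD) or stayed on regular chow (RC) until day 5, 13 or 33. Each of the 69 libraries held the islets of 1 mouse, picked by hand after digestion of the pancreas and kept overnight in culture before extraction. The labels name no transgene, and the fat content of the diet is not given in the sources used here. Strain, diet and day made 18 groups, 15 with 4 libraries. With 3 libraries stood the day 33 chow groups of C57BL/6J and DBA/2J and the day 13 HFD group of DBA/2J. Over the days this gave 12 HFD and 11 RC libraries for C57BL/6J, 11 and 11 for DBA/2J, and 12 and 12 for BALB/cJ.

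Insulin and the IGFs bind receptor tyrosine kinases, which phosphorylate the insulin receptor substrate (IRS) proteins. These recruit phosphoinositide 3-kinase (PI3-kinase), whose lipid product brings the AKT kinases to the membrane, and active AKT keeps the transcription factor FOXO1 out of the nucleus. In beta cells the pathway is known for its part in growth, survival and the upkeep of beta-cell mass, with IRS2 as the substrate best known for it.

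Levels are given as log2 CPM, the log2 of the normalized CPM of a gene, so that 1 unit is a doubling. Between 12292621 and 34591079 reads (median 22756199) fell in the tabled genes of a library. The members had 248 (Irs1, its lowest library) to 5363 (Akt1, its highest) reads in a library. Markers of beta cells were abundant in every library: the 10 listed beta-cell genes summed to between 130000 and 275000 CPM. Markers of other cells were present too and differed by strain. The 13 measured acinar genes had median sums of 802 to 3430 CPM by strain and diet, with a highest library of 43400, while the 10 endothelial genes summed to 561 to 1070 CPM and the 12 stellate-cell and fibroblast genes to 165 to 778. Ptf1a (acinar), Cftr (ductal), Itgam (macrophage), the lymphocyte genes Cd3e, Cd3d and Cd79b and the adipocyte genes Adipoq, Plin1, Cfd and Lep are not among the genes of the table. In bulk islet RNA, fewer cells of a type and less RNA per cell cannot be told apart.

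The upstream sequences of the members that differed between strains are shown first, since these genes moved in opposite directions: Irs1, Irs2 and Foxo1 were lower in DBA/2J or BALB/cJ than in C57BL/6J, while Akt1 and Akt2 were higher in DBA/2J. Each is the 250 bases before the outermost start site in RefSeq (GRCm38.p6), read 5′ to 3′ on the gene's strand. Of the 9 members, 8 had such a sequence, and Insr had none in the table used. Akt1 had 2 start sites there and Akt2 had 4, and only the outermost was searched. The sequences are those of the genome build, and the strains were not compared in sequence. Capitals mark matches, on either strand, to the E-box CACGTG, the FOXO core TGTTTAC, the insulin response core TGTTTTG and the CCAAT box.
Irs1 (chr1:82291440-82291689, minus strand): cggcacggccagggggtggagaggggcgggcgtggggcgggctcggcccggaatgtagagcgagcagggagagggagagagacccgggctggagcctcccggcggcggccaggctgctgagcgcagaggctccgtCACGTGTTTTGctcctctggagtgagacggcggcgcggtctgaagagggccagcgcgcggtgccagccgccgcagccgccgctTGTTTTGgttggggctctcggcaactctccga
Irs2 (chr8:11008930-11009179, minus strand): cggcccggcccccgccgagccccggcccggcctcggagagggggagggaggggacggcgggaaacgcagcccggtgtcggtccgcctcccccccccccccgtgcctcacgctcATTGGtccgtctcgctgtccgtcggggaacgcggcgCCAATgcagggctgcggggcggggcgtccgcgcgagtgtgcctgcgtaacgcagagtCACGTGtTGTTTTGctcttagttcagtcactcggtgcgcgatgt
Foxo1 (chr3:52268087-52268336, plus strand): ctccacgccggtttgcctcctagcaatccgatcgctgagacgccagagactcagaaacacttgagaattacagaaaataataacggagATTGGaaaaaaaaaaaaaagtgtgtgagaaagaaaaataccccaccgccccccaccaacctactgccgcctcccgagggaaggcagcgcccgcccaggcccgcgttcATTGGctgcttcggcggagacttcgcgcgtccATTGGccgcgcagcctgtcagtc
Akt1 (chr12:112674885-112675134, minus strand): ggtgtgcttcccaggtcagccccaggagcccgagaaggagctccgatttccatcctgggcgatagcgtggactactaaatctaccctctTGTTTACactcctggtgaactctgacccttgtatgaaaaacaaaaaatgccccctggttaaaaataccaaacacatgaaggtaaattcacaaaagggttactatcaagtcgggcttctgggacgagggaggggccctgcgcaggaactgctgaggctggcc
Akt2 (chr7:27591302-27591551, plus strand): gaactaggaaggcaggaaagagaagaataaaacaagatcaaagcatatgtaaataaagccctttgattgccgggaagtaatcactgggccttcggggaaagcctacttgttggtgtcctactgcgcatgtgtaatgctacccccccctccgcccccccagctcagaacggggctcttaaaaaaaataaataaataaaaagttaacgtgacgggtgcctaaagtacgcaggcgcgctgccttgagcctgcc

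The Irs1 and Irs2 sequences shared a pairing of an E-box with an insulin response core. In Irs1 the E-box spanned bases -115 to -110 before the start and the core bases -111 to -105, so that they overlapped, and a further core spanned -32 to -26. In Irs2 the E-box lay at -44 to -39 and the core just downstream at -37 to -31. Irs2 also held 2 CCAAT boxes and Foxo1 held 3, while Akt1 held 1 FOXO core at -161 to -155 and Akt2 held none of the motifs. Of the 32851 upstream windows in the table, 6.02% held the E-box, 5.56% the insulin response core, 3.17% the FOXO core and 33.8% a CCAAT box. The 250 bases were 72.4% G and C in Irs1 and 72.8% in Irs2, against 52% in Akt1, 48.8% in Akt2 and 56% in Foxo1, and the median of all windows was 52.4%. A match is a run of letters and no measured binding site.

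Per length, Akt1 was the most abundant member and Irs1 the least. Levels between genes were compared as CPM per kb of merged exons. Akt1, a serine/threonine kinase, stood at a median of 35.3 (26.8 to 47 over the 69 libraries), and the second AKT isoform, Akt2, at 12 (9.54 to 16.2). Akt1 exceeded Akt2 in 69 of 69 libraries, with a median ratio of 2.92. Akt2 and Pik3r1, the main regulatory subunit of PI3-kinase (median 11.9), did not keep an order, since Akt2 was higher in 39 of 69 libraries. Foxo1 followed at 8.88 (6.92 to 12.1), below Pik3r1 in 65 of 69 libraries and above Grb10 in 60.

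Grb10, an adaptor that binds the activated receptors and dampens their signal, stood at a median of 7.42 CPM per kb. The receptors Igf1r (7.22) and Insr (7.12) and the adaptor Irs2 (7.05) lay within the same range. These 4 did not differ in level beyond their spread: Grb10 exceeded Igf1r in 41 of 69 libraries, Igf1r exceeded Insr in 35 and Insr exceeded Irs2 in 36. Irs1 stood apart at 2.23 (1.32 to 2.93), below Irs2 in 69 of 69 libraries, and the ratio of Irs2 to Irs1 had a median of 3.28 and a range of 2 to 5.96. For comparison on the same scale, the insulin genes Ins2 and Ins1 had medians of 94600 and 47300, and Insrr, which encodes the insulin receptor-related receptor, had 77.8 (55.4 to 147).

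**Figure D1:**
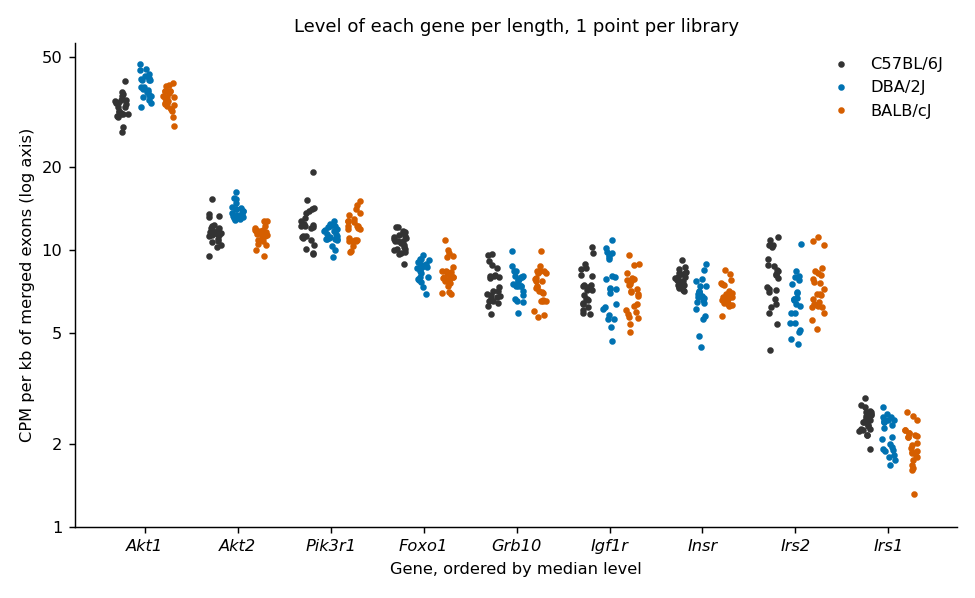
CPM per kb of merged exons (log axis) of the 9 genes in each of the 69 libraries, ordered by median and coloured by strain; each point is 1 library. The Akt1 points (26.8 to 47) lie above all points of the other genes, and the Irs1 points (1.32 to 2.93) lie below them.

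Strain accounted for 62% of the variance of Foxo1 between libraries and 54.4% of that of Akt2, against a median of 27.3% over all genes. For Akt1 the share was 39.2%, for Irs1 28.3% and for Insr 28.2%. It was 11.5% for Irs2, 6.9% for Pik3r1, 1.9% for Igf1r and 0.6% for Grb10. Irs2 varied most among mice of one group, with an SD of 0.34 on the log2 scale, above 98.1% of the genes at a mean of 4 log2 CPM or more. Igf1r followed at 0.24, and Akt2 varied least of the members at 0.11.

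**Figure D2:**
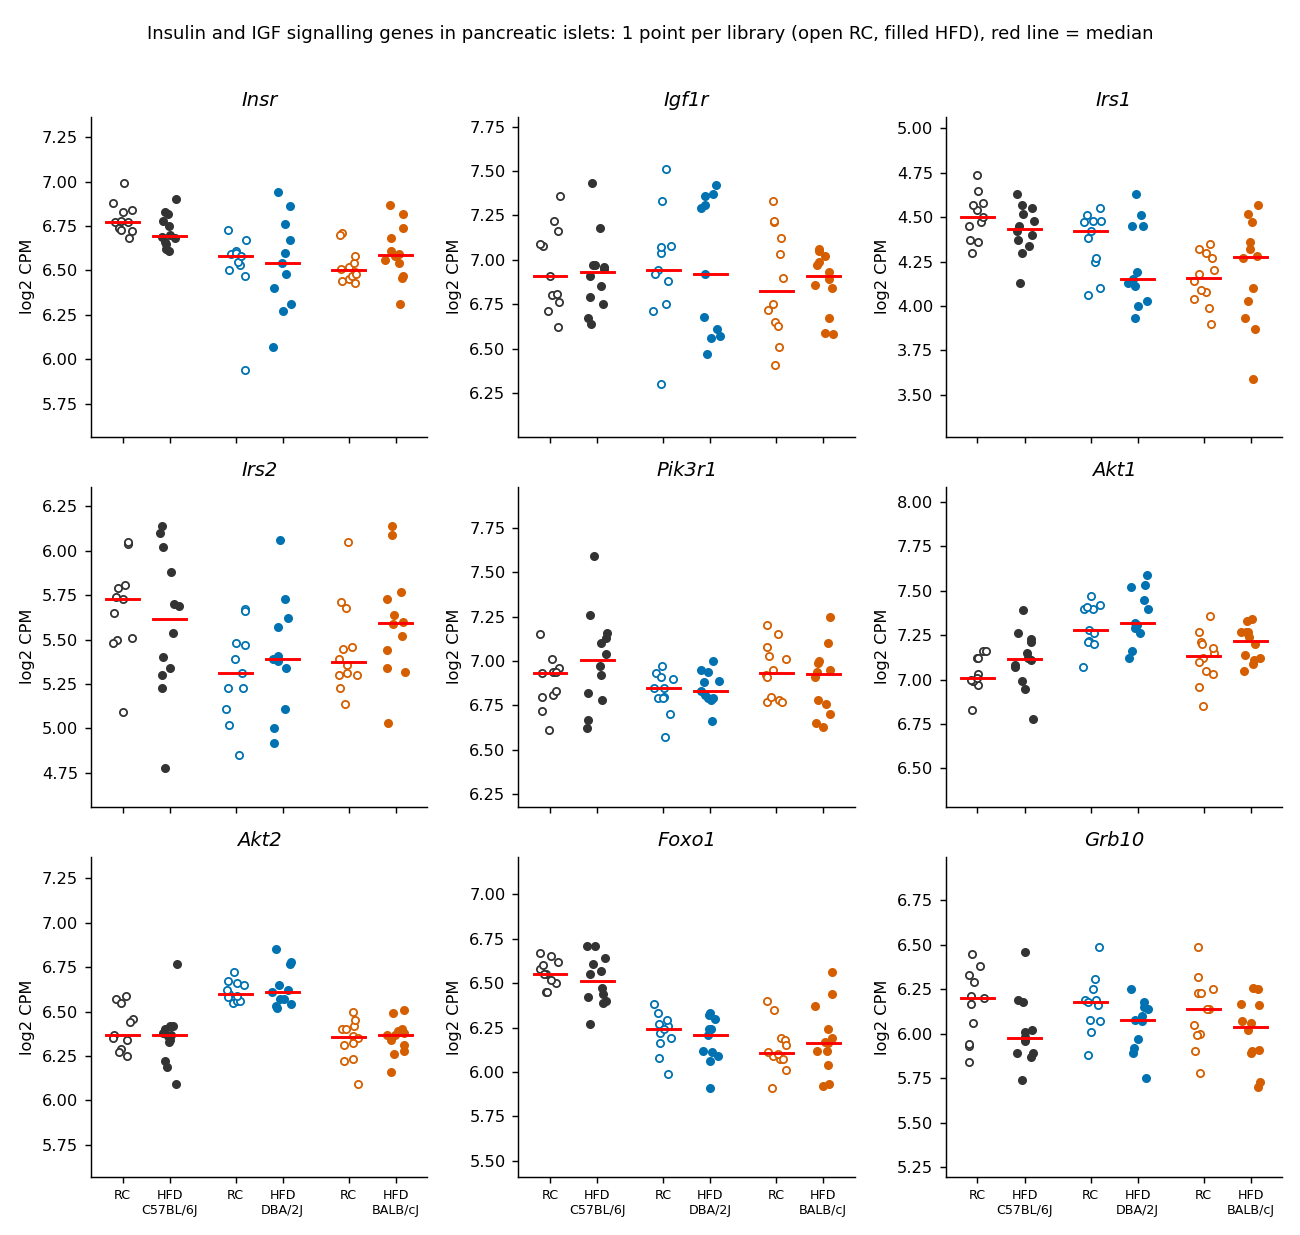
log2 CPM of each gene in every library, by strain and diet over the 3 days; open points are RC, filled points HFD, red lines medians, and every panel spans the same height. The DBA/2J points of Akt2 lie above all BALB/cJ points, the C57BL/6J points of Foxo1 lie high under both diets, and Igf1r and Grb10 lie at like levels in the 3 strains.

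The first comparison asks how the strains differ on one diet. Reads of all strains were set against the same genome build, GRCm38. The part of sequence differences between strains in the values was not tested. Strain differences are differences of log2 CPM averaged over the days, from a limma model of all libraries, with p-values adjusted by the Benjamini-Hochberg method over all genes and 0.05 as the threshold. Averaged over the days, DBA/2J islets had less Foxo1 and Insr and more Akt1 and Akt2 than C57BL/6J islets on both diets. At day 33 under HFD the Insr mean was instead higher in DBA/2J (6.81) than in C57BL/6J (6.69). BALB/cJ islets had less Foxo1 and Irs1 than C57BL/6J islets on both diets, and less Akt1 and Akt2 than DBA/2J islets. Of the 9 members, 5 passed between DBA/2J and C57BL/6J under RC (2 higher, 3 lower), where 54.5% of all genes passed, and 5 under HFD (2 higher, 3 lower), where 58.6% did. Between BALB/cJ and C57BL/6J 3 passed under RC (background 56.3%) and 2 under HFD (54.5%), all lower. Between BALB/cJ and DBA/2J 3 passed under RC (background 35%) and 2 under HFD (35.1%), all lower. A count of 5 of 9 or 3 of 9 is near or under these backgrounds and says nothing particular of the members as a group. With the number in each sample's title as a covariate, 7 of the 21 calls of a member ended, 4 of them in DBA/2J minus C57BL/6J under HFD, where Foxo1 alone passed. These numbers run in part with day and diet within a strain, so that number and group cannot be fully told apart.

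Insr encodes the insulin receptor (ENSMUSG00000005534.10, GRCm38 chromosome 8 from 3122061 to 3279617, minus strand). Under RC its lowest, median and highest values were 6.68, 6.77 and 6.99 log2 CPM in C57BL/6J, 5.94, 6.58 and 6.73 in DBA/2J, and 6.43, 6.50 and 6.71 in BALB/cJ. The C57BL/6J libraries lay at the top: 1 of 11 DBA/2J and 2 of 12 BALB/cJ libraries reached their range. Insr was lower by -0.27 ± 0.06 in DBA/2J (SE; adjusted p = 8.4e-05 by limma) and by -0.27 ± 0.06 in BALB/cJ (adjusted p = 3.56e-05). Under HFD the difference was -0.19 ± 0.06 in DBA/2J (adjusted p = 0.00289 by limma), a call that ended with the title number as a covariate (-0.15, adjusted p = 0.23). This call also ended without day 5 (-0.09, adjusted p = 0.354 by limma). At day 33 under HFD the Insr mean was higher in DBA/2J (6.81 ± 0.12) than in C57BL/6J (6.69 ± 0.09, SD, n = 4 each). In BALB/cJ under HFD the difference from C57BL/6J was -0.12 ± 0.05 (adjusted p = 0.0546 by limma), which missed the threshold and passed it when any one of 11 libraries was left out. These were replicates 2 and 4 of C57BL/6J HFD day 5, replicate 2 of day 13 and replicate 4 of day 33 of that strain and diet, replicates 1 and 3 of DBA/2J HFD day 5, DBA/2J RC day 13 replicate 3, and, of BALB/cJ HFD, day 5 replicate 1, day 13 replicates 1 and 2 and day 33 replicate 2. The DBA/2J libraries enter neither side of this difference. Without each of them it stayed at -0.12, and only its adjusted p changed.

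Igf1r encodes the IGF1 receptor (ENSMUSG00000005533.10, chromosome 7 from 67952827 to 68233668, plus strand). Its medians under RC were 6.91 log2 CPM in C57BL/6J (6.62 to 7.36), 6.94 in DBA/2J (6.30 to 7.51) and 6.83 in BALB/cJ (6.41 to 7.33). The ranges overlapped almost whole, and none of its 6 strain differences passed. They ran from -0.11 ± 0.09 (BALB/cJ minus DBA/2J under RC) to 0.05 ± 0.10 (DBA/2J minus C57BL/6J under RC). In each library Igf1r and Insr stood close to each other per length. The ratio of Igf1r to Insr had a median of 0.903 in C57BL/6J, 1.08 in DBA/2J and 0.986 in BALB/cJ, and the ranges of these ratios overlapped.

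Irs1 (ENSMUSG00000055980.2, chromosome 1 from 82233101 to 82291416, minus strand) encodes the substrate best known from muscle and fat. Under RC it stood at 4.30, 4.50 and 4.74 (lowest, median, highest) in C57BL/6J, 4.06, 4.42 and 4.55 in DBA/2J and 3.90, 4.16 and 4.35 in BALB/cJ. The BALB/cJ libraries were low, and 2 of 12 reached the C57BL/6J range. Irs1 was lower in BALB/cJ than in C57BL/6J by -0.36 ± 0.08 under RC (adjusted p = 8.91e-05) and -0.24 ± 0.07 under HFD (adjusted p = 0.00627, both by limma). The HFD call ended without day 33 (-0.16, adjusted p = 0.12 by limma). Under HFD the BALB/cJ and C57BL/6J means were 4.03 ± 0.42 and 4.43 ± 0.11 at day 33 (SD, n = 4 each). At day 5 they were 4.37 ± 0.11 and 4.44 ± 0.21. Irs1 was lower in DBA/2J than in C57BL/6J under HFD, by -0.20 ± 0.08 (adjusted p = 0.0206 by limma), a call that ended without DBA/2J HFD day 33 replicate 1 (-0.17, adjusted p = 0.0526). This call also ended without day 5 (-0.15, adjusted p = 0.214) or day 13 (-0.15, adjusted p = 0.169, both by limma). With the title number as a covariate the HFD differences of Irs1 kept their size and did not pass, at -0.24 in BALB/cJ (adjusted p = 0.168) and -0.22 in DBA/2J (adjusted p = 0.211, both by limma). Between BALB/cJ and DBA/2J under RC it was -0.21 ± 0.08 (adjusted p = 0.0277 by limma). That call ended, at -0.18 to -0.19, when any one of DBA/2J RC day 13 replicates 1 and 4, DBA/2J RC day 33 replicate 1 or BALB/cJ RC day 13 replicate 2 was left out. It also ended without day 5 (-0.22, adjusted p = 0.106), day 13 (-0.23, adjusted p = 0.0687) or day 33 (-0.18, adjusted p = 0.102, all by limma).

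Irs2 (ENSMUSG00000038894.7, chromosome 8 from 10984681 to 11008458, minus strand) spread widely within each strain. Under RC its lowest, median and highest values were 5.09, 5.73 and 6.05 in C57BL/6J, 4.85, 5.31 and 5.67 in DBA/2J, and 5.14, 5.38 and 6.05 in BALB/cJ. The strains overlapped, with 9 of 11 DBA/2J libraries inside the C57BL/6J range. Only DBA/2J minus C57BL/6J under RC passed among the 6 strain differences of Irs2, at -0.36 ± 0.14 (adjusted p = 0.0222 by limma). By limma it missed the threshold without C57BL/6J RC day 13 replicate 3 (-0.31, adjusted p = 0.0521) or without DBA/2J RC day 13 replicate 3 (-0.32, adjusted p = 0.0519). It also missed it without day 5 (-0.37, adjusted p = 0.0888), day 13 (-0.38, adjusted p = 0.0643) or day 33 (-0.34, adjusted p = 0.055, all by limma). With the title number as a covariate it was -0.18 (adjusted p = 0.521 by limma). Annotated genes on the opposite strand overlap Irs1, Irs2 and Foxo1. The library kit keeps strand, but whether the counting used it is not given in the sources used here.

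Pik3r1 (ENSMUSG00000041417.15, chromosome 13 from 101680563 to 101768217, minus strand) encodes the p85-alpha family of regulatory subunits, which tie PI3-kinase to the IRS proteins. Its medians under RC were 6.93 in C57BL/6J (6.61 to 7.15), 6.85 in DBA/2J (6.57 to 6.97) and 6.94 in BALB/cJ (6.77 to 7.20), and the strains overlapped. None of its 6 strain differences passed. The nearest to the threshold was DBA/2J minus C57BL/6J under HFD, at -0.15 ± 0.07 (adjusted p = 0.0581 by limma), which passed when any one of 5 libraries was left out: C57BL/6J HFD day 5 replicate 2, day 13 replicate 1 or day 33 replicates 3 and 4, or DBA/2J HFD day 33 replicate 3.

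Akt1 (ENSMUSG00000001729.14, chromosome 12 from 112653821 to 112674884, minus strand) and Akt2 (ENSMUSG00000004056.15, chromosome 7 from 27591552 to 27640826, plus strand) were both highest in DBA/2J. Under RC Akt1 stood at 6.83, 7.01 and 7.16 (lowest, median, highest) in C57BL/6J, 7.07, 7.28 and 7.47 in DBA/2J, and 6.85, 7.13 and 7.36 in BALB/cJ. Of the DBA/2J libraries 1 lay inside the C57BL/6J range, and 4 C57BL/6J libraries lay inside the DBA/2J range. Akt1 was higher in DBA/2J than in C57BL/6J by 0.27 ± 0.05 under RC (adjusted p = 2.31e-05) and 0.25 ± 0.05 under HFD (adjusted p = 4.16e-05, both by limma). The HFD call ended with the title number as a covariate, at 0.13 (adjusted p = 0.245 by limma). It also ended without day 5, at 0.16 (adjusted p = 0.0521 by limma). Akt1 was lower in BALB/cJ than in DBA/2J, by -0.18 ± 0.05 under RC (adjusted p = 0.00484) and -0.16 ± 0.05 under HFD (adjusted p = 0.012, both by limma). This RC call ended without day 13 (-0.12, adjusted p = 0.189) and this HFD call without day 5 (-0.10, adjusted p = 0.347, both by limma). BALB/cJ minus C57BL/6J did not pass for Akt1, but passed after quantile normalization, at 0.16 under RC (adjusted p = 0.0113) and 0.13 under HFD (adjusted p = 0.0312, both by limma), where BALB/cJ minus DBA/2J under HFD no longer did (-0.13, adjusted p = 0.0541).

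Akt2 set DBA/2J apart from BALB/cJ in every library. Under RC it stood at 6.55, 6.60 and 6.72 in DBA/2J and 6.09, 6.36 and 6.50 in BALB/cJ, and under HFD at 6.52, 6.61 and 6.85 against 6.16, 6.37 and 6.51. The lowest of the 22 DBA/2J libraries (6.52) lay above the highest of the 24 BALB/cJ libraries (6.51). The difference was -0.28 ± 0.05 under RC (adjusted p = 1.73e-06) and -0.28 ± 0.05 under HFD (adjusted p = 2.2e-06, both by limma), a fold of 0.824 and 0.825. Of the 9 members Akt2 alone kept these strains from overlapping, where 6.48% of all genes did so under RC, 5.44% under HFD and 3.84% over both diets. Akt2 was also higher in DBA/2J than in C57BL/6J, by 0.22 ± 0.05 under RC (adjusted p = 0.000103) and 0.28 ± 0.05 under HFD (adjusted p = 1.31e-06, both by limma). The HFD call ended with the title number as a covariate, at 0.17 (adjusted p = 0.0893 by limma). BALB/cJ minus C57BL/6J did not pass, at 0.00 ± 0.05 under HFD (95% interval -0.09 to 0.09) and -0.06 ± 0.05 under RC (-0.15 to 0.03). The RC difference passed without day 33 (-0.13, adjusted p = 0.0391 by limma).

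Foxo1 (ENSMUSG00000044167.6, chromosome 3 from 52268336 to 52353221, plus strand) was highest in C57BL/6J. Under RC it stood at 6.45, 6.55 and 6.67 (lowest, median, highest) in C57BL/6J, 5.99, 6.24 and 6.38 in DBA/2J, and 5.91, 6.11 and 6.40 in BALB/cJ. Under RC the C57BL/6J libraries overlapped neither of the other strains, and Foxo1 was the only member of which this was true, where 11.5% of all genes did not overlap with DBA/2J and 11% with BALB/cJ. Under HFD, where no member was without overlap (9.23% and 7.92% of all genes), 3 of 11 DBA/2J and 3 of 12 BALB/cJ libraries reached the C57BL/6J range of 6.27 to 6.71. Of the 12 C57BL/6J libraries under HFD, 1 lay inside the DBA/2J range and 7 inside the BALB/cJ range. Foxo1 was lower in DBA/2J by -0.34 ± 0.05 under RC (adjusted p = 3.98e-07) and -0.34 ± 0.05 under HFD (adjusted p = 2.01e-07, both by limma). In BALB/cJ it was lower by -0.43 ± 0.05 under RC (adjusted p = 7.57e-10) and -0.33 ± 0.05 under HFD (adjusted p = 3.21e-07, both by limma). The fold in BALB/cJ under RC was 0.744.

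Grb10 (ENSMUSG00000020176.17, chromosome 11 from 11930508 to 12038683, minus strand), an imprinted gene, did not follow strain. Its medians under RC were 6.20 in C57BL/6J (5.84 to 6.45), 6.18 in DBA/2J (5.88 to 6.49) and 6.14 in BALB/cJ (5.78 to 6.49). The ranges nearly coincided. None of its 6 strain differences passed, and they ran from -0.05 ± 0.07 (BALB/cJ minus DBA/2J under RC) to 0.03 ± 0.07 (DBA/2J minus C57BL/6J under either diet).

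**Figure D3:**
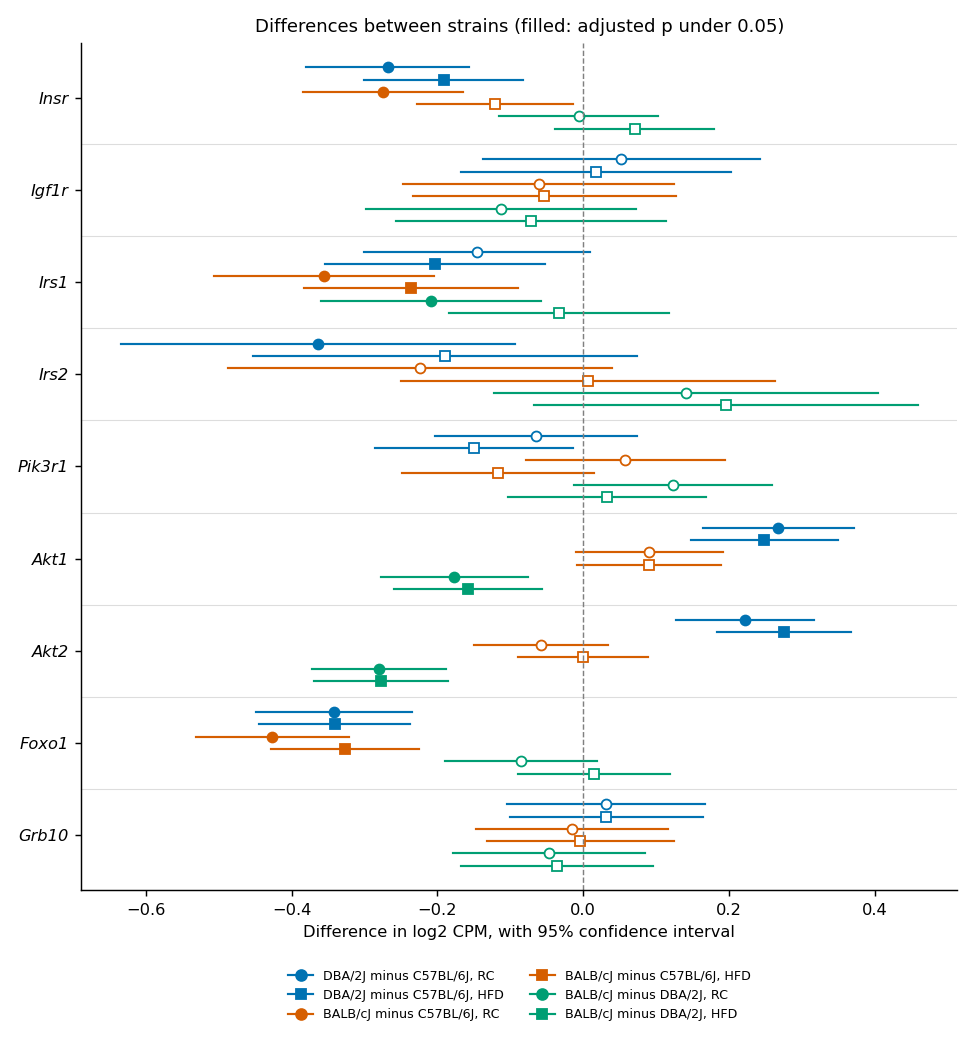
Difference of each gene between 2 strains in log2 CPM (x axis) with its 95% confidence interval, circles under RC and squares under HFD, filled where the adjusted p was under 0.05. Foxo1 lies left of 0 in both strains set against C57BL/6J (-0.33 to -0.43), Akt2 lies right of 0 for DBA/2J minus C57BL/6J and left of 0 for BALB/cJ minus DBA/2J, and Igf1r, Pik3r1 and Grb10 have no filled symbol.

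Markers of other cells also differed between strains. Under RC 54.5% of all genes passed in DBA/2J minus C57BL/6J, 56.3% in BALB/cJ minus C57BL/6J and 35% in BALB/cJ minus DBA/2J. The share of acinar markers in BALB/cJ minus C57BL/6J was 53.8%, near the background. Of 10 beta-cell markers under RC, 3 were higher and 1 lower in DBA/2J than in C57BL/6J. In BALB/cJ 3 were higher and 2 lower than in C57BL/6J. Against C57BL/6J under RC, DBA/2J had 8 of 10 endothelial markers higher and 1 lower, and 11 of 13 acinar markers higher, while 6 of 9 macrophage markers were lower. BALB/cJ had 10 of 12 stellate-cell and fibroblast markers higher and 1 lower, 7 of 10 endothelial, 7 of 13 acinar, 4 of 6 ductal and 4 of 5 Schwann-cell markers higher. Against DBA/2J under RC, BALB/cJ had 4 of 4 delta-cell, 8 of 12 stellate-cell and fibroblast and 4 of 5 Schwann-cell markers higher, and 4 of 6 ductal markers higher and 1 lower. Under HFD the higher counts were 4, 9, 4 and 4, with 1 Schwann-cell and 1 ductal marker lower. Against C57BL/6J under HFD, DBA/2J had 9 of 10 endothelial and 6 of 12 stellate-cell and fibroblast markers higher (background 58.6%). No acinar marker passed there, and 4 of 9 macrophage markers were lower. BALB/cJ had 8 of 10 endothelial and 11 of 12 stellate-cell and fibroblast markers higher, with 1 of the latter lower (background 54.5%). Beta-cell markers were 4 higher in DBA/2J, and 7 higher and 2 lower in BALB/cJ. The summed stellate-cell and fibroblast level under RC was 259 to 427 CPM in C57BL/6J, 321 to 468 in DBA/2J and 332 to 778 in BALB/cJ. With the acinar, endothelial, macrophage and stellate-cell scores of each library as covariates, 16 of the 21 calls above and below (strain and diet) ended. The calls that passed with the covariates were Foxo1 in DBA/2J minus C57BL/6J under HFD (-0.24) and in BALB/cJ minus C57BL/6J under RC (-0.29), Akt2 in BALB/cJ minus DBA/2J under both diets (-0.22 and -0.20), and Akt1 in BALB/cJ minus DBA/2J under RC (-0.15). With these covariates Irs1 fell to -0.00 in DBA/2J minus C57BL/6J and -0.02 in BALB/cJ minus C57BL/6J, both under HFD. Irs2 in DBA/2J minus C57BL/6J under RC lost its call while its estimate grew from -0.36 to -0.55 (adjusted p = 0.0848 by limma). Calls that ended as the estimate shrank include Foxo1 in that comparison, from -0.34 to -0.22 (adjusted p = 0.0565). Insr in BALB/cJ minus C57BL/6J under RC shrank from -0.27 to -0.20 (adjusted p = 0.108, both by limma). The delta-cell, ductal and Schwann-cell markers were not among the covariates, and their part in the results was not tested.

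The second comparison asks what HFD did. Grb10 was the only one of the 9 members to pass for HFD minus RC averaged over strains and days, where 5.47% of all genes passed. It stood at 5.78, 6.17 and 6.49 log2 CPM (lowest, median, highest) in the 34 RC libraries and at 5.70, 6.02 and 6.46 in the 35 HFD libraries. The diets overlapped nearly whole. Grb10 fell by 0.12 ± 0.04 (SE; fold 0.917; adjusted p = 0.0456 by limma), with like estimates of -0.13 ± 0.07 in C57BL/6J, -0.13 ± 0.07 in DBA/2J and -0.12 ± 0.07 in BALB/cJ. In the 9 pairs of strain and day it was lower in 6 and higher in 3, from -0.24 to 0.01. The call rests near its threshold: it ended when any one of 37 libraries was left out (limma adjusted p 0.0142 to 0.0822 over the 69 removals), without any one day, with the cell type scores (-0.11, adjusted p = 0.13) and with the title number (-0.15, adjusted p = 0.204). Of the 12 stellate-cell and fibroblast markers 6 fell in the same comparison and none rose, with a median of -0.39.

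By group, the Grb10 mean was lowest at day 33 among the 3 days in C57BL/6J and BALB/cJ on both diets. In C57BL/6J under RC it averaged 6.21 ± 0.13 (SD, n = 4) at day 5, 6.31 ± 0.12 (SD, n = 4) at day 13 and 5.91 ± 0.05 (SD, n = 3) at day 33. Under HFD the C57BL/6J means were 6.05 ± 0.28, 6.08 ± 0.13 and 5.92 ± 0.13 (SD, n = 4 each). In DBA/2J under RC the day 33 mean was 6.27 ± 0.21 (SD, n = 3), with no such low value. Day 33 minus day 5 under RC did not pass, at -0.31 ± 0.12 in C57BL/6J (adjusted p = 0.273), 0.08 ± 0.12 in DBA/2J (adjusted p = 0.872) and -0.24 ± 0.11 in BALB/cJ (adjusted p = 0.764, all by limma).

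Akt1 was the next member by size of evidence. Its lowest, median and highest values were 6.83, 7.15 and 7.47 under RC and 6.78, 7.23 and 7.59 under HFD. The diets overlapped, and the average difference of 0.07 ± 0.03 (adjusted p = 0.129 by limma) did not pass, although 7 of 9 pairs of strain and day were higher. It passed without C57BL/6J HFD day 33 replicate 1 (0.09, adjusted p = 0.0334 by limma). The other 7 members had average diet differences from -0.06 ± 0.04 (Irs1) to 0.06 ± 0.08 (Irs2), none past the threshold. The 95% interval for Insr was -0.06 to 0.06, for Foxo1 -0.07 to 0.05 and for Irs2 -0.10 to 0.21.

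Within a strain, no member passed for diet. In C57BL/6J, where 14.6% of all genes passed, the estimates ran from -0.13 ± 0.07 (Grb10) to 0.12 ± 0.07 (Pik3r1). In DBA/2J 0% of genes passed by limma (4.1% at an unadjusted p under 0.05), and in BALB/cJ 0.151%. The diet effect did not differ between strains for any member. Of all genes, 1.11% passed for DBA/2J against C57BL/6J, 1.27% for BALB/cJ against C57BL/6J and 0% for BALB/cJ against DBA/2J (3.23% at an unadjusted p under 0.05). The largest of these differences among the members was Irs2 in BALB/cJ minus C57BL/6J, at 0.23 ± 0.19 (adjusted p = 0.57 by limma).

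**Figure D4:**
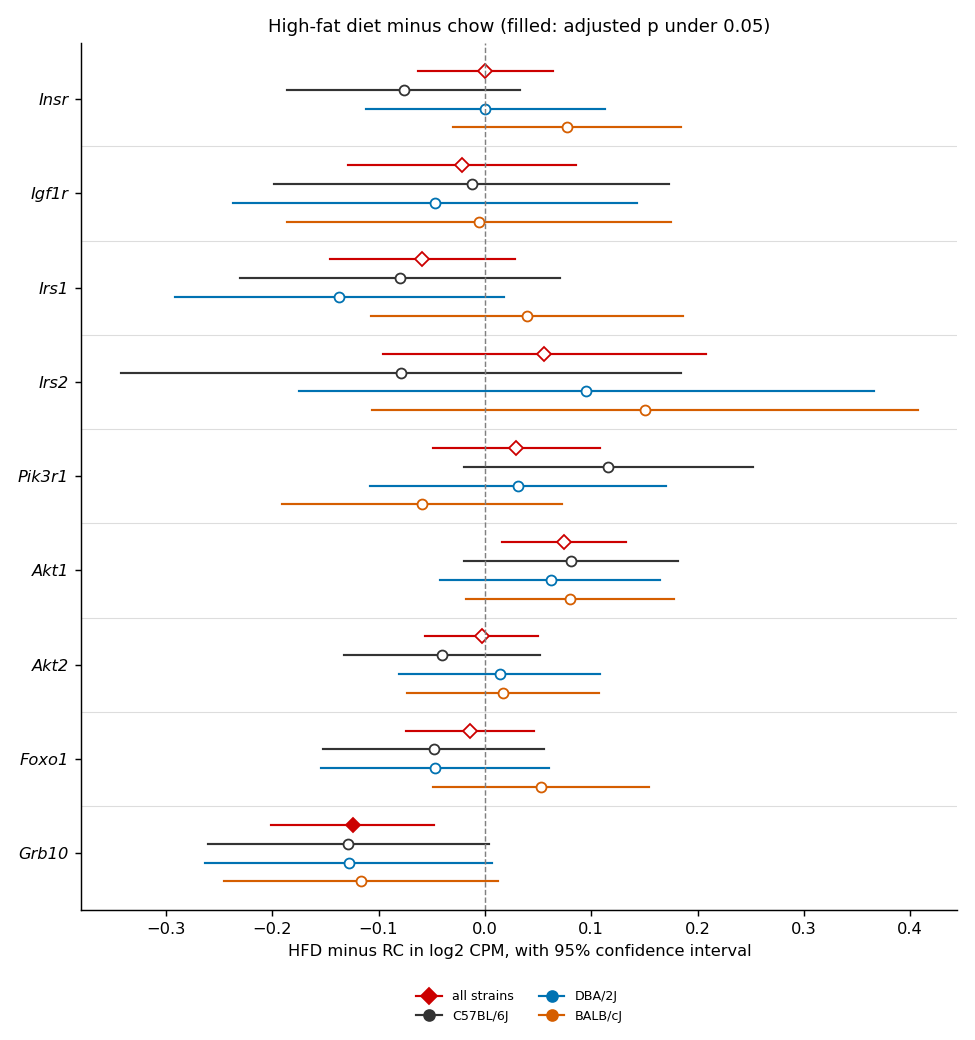
HFD minus RC in log2 CPM (x axis) with its 95% confidence interval for each gene, over all strains (diamonds) and in each strain over the days (circles), filled where the adjusted p was under 0.05. Grb10 over all strains (-0.12) is the only filled symbol, and its 3 strain estimates lie between -0.12 and -0.13.

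Single days were compared within each strain, with 3 or 4 libraries a group. None of the 81 pairs of a member and a strain at a day passed. The share of all genes that passed was 1.87% in C57BL/6J at day 5, 1.04% at day 13 and 0% at day 33. It was 0.548%, 0% and 0.0205% on those days in DBA/2J, and 0.315%, 0.00685% and 0% in BALB/cJ. At an unadjusted p under 0.05, 14.9% of genes passed in C57BL/6J at day 33, 4.1% in DBA/2J at day 13 and 4.58% in BALB/cJ at day 33.

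Insr in DBA/2J came nearest. At day 5 the RC libraries held 6.67, 6.61, 6.53 and 6.47 log2 CPM, and the HFD libraries 6.60, 6.31, 6.27 and 6.07. Of the HFD libraries 1 lay inside the RC range. The difference was -0.26 ± 0.09 (adjusted p = 0.0861 by limma). At day 33 the RC libraries held 6.73, 6.58 and 6.55 and the HFD libraries 6.94, 6.86, 6.76 and 6.67, a difference of 0.19 ± 0.10 (adjusted p = 0.621 by limma). The change of the diet effect from day 5 to day 33 was 0.45 ± 0.14 (adjusted p = 0.0771 by limma), which did not pass. By limma it passed at 0.54 (adjusted p = 0.0274) without DBA/2J HFD day 5 replicate 1, at 0.45 (adjusted p = 0.048) without replicate 2 of that group, and at 0.45 (adjusted p = 0.0358) without DBA/2J RC day 13 replicate 3. By limma the day 5 difference passed without replicate 1 of that group (-0.35, adjusted p = 0.021) and without DBA/2J RC day 13 replicate 3 (-0.26, adjusted p = 0.0435). DBA/2J RC day 13 replicate 3 enters neither comparison, and without it the estimates stayed at 0.45 and -0.26.

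At day 5 in DBA/2J other members stood, with no call, at -0.29 ± 0.13 (Irs1), -0.21 ± 0.11 (Grb10), -0.18 ± 0.09 (Foxo1), 0.21 ± 0.09 (Akt1) and 0.14 ± 0.08 (Akt2). The Irs1 difference passed without DBA/2J HFD day 5 replicate 1 (-0.41, adjusted p = 0.0419 by limma). No member passed for the change of the diet effect between days 33 and 5, where 0.0205% of all genes passed in C57BL/6J, 0.0137% in DBA/2J and 0% in BALB/cJ (4.83% at an unadjusted p under 0.05).

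**Figure D5:**
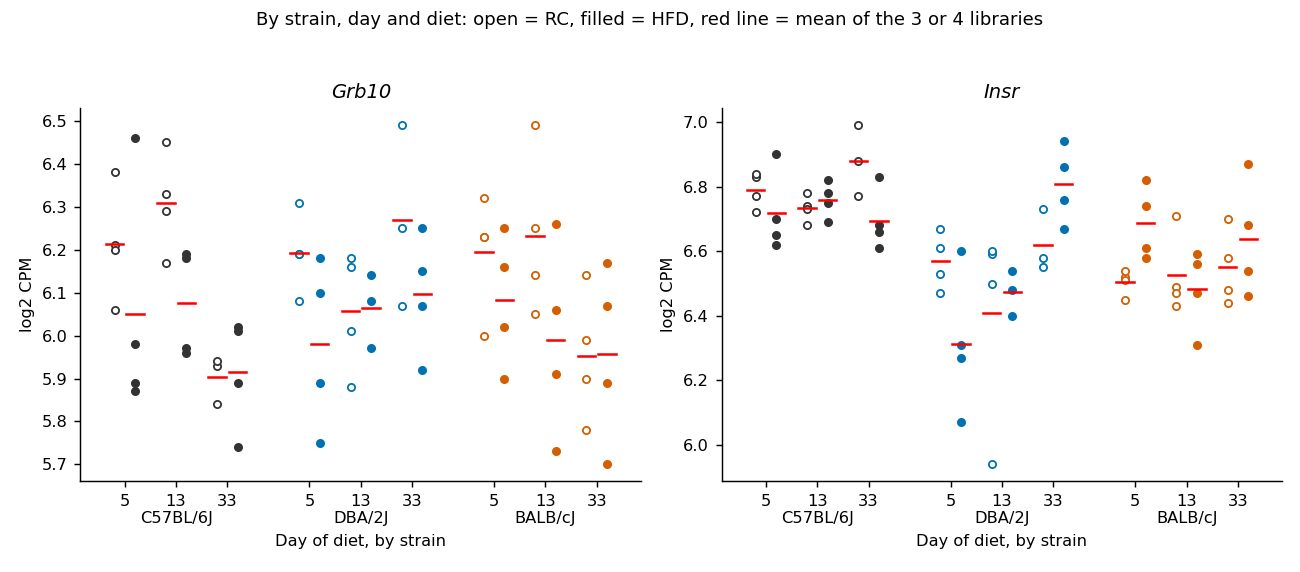
log2 CPM of Grb10 (left) and Insr (right) in every library by day (x axis) and strain; open points are RC, filled points HFD, red lines the mean of the 3 or 4 libraries. Grb10 sits at 5.74 to 6.02 in all C57BL/6J libraries of day 33, and the DBA/2J HFD means of Insr lie at 6.31 on day 5 and 6.81 on day 33.

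Under RC no member differed between days 33 and 5 in any strain, and 0.123% of all genes did so in C57BL/6J, 0.00685% in DBA/2J and 0.00685% in BALB/cJ. Igf1r gave the widest estimates, at -0.40 ± 0.17 in C57BL/6J and 0.37 ± 0.17 in DBA/2J. In DBA/2J it averaged 6.71 ± 0.28 (SD, n = 4) at day 13 and 7.31 ± 0.21 (SD, n = 3) at day 33 under RC, and 6.72 ± 0.18 (SD, n = 3) and 7.35 ± 0.06 (SD, n = 4) under HFD. At both diets the day 33 libraries of DBA/2J were high. Days 33 and 13 were not tested against each other.

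The rest of the pathway was read from a list of 102 other genes, of which 95 were measured. For diet on average, 3 of the 95 rose and 1 fell (background 5.47%), with a median of 0.01. Pik3r5, a regulatory subunit of PI3-kinase gamma, rose by 0.28 ± 0.06 (adjusted p = 0.00282), Trib1, a pseudokinase of the Tribbles family, by 0.25 ± 0.05 (adjusted p = 0.000529), and Sod2, the mitochondrial superoxide dismutase, by 0.08 ± 0.02 (adjusted p = 0.0474, all by limma). Klf15, a transcription factor of fasting metabolism, fell by 0.20 ± 0.06 (adjusted p = 0.0449 by limma).

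In C57BL/6J 8 of the 95 rose and 7 fell (background 14.6%). Trib1 rose by 0.52 ± 0.08 (adjusted p = 3.56e-05), Insrr by 0.33 ± 0.08 (adjusted p = 0.00504) and Pik3r5 by 0.33 ± 0.11 (adjusted p = 0.0295, all by limma). Insrr averaged 9.31 ± 0.25 log2 CPM under HFD (SD, n = 12) and 8.97 ± 0.19 under RC (SD, n = 11). Igf1, the ligand of Igf1r, fell by 0.76 ± 0.24 (adjusted p = 0.0228), the cell-cycle inhibitor Cdkn1a by 0.46 ± 0.16 (adjusted p = 0.041) and Cited2 by 0.39 ± 0.14 (adjusted p = 0.0475, all by limma). Igf1 was a low gene, at 0.12 ± 0.53 log2 CPM under HFD (SD, n = 12) and 0.86 ± 0.89 under RC (SD, n = 11), and 7 of 12 stellate-cell and fibroblast markers and 2 of 9 macrophage markers fell with it. In BALB/cJ 1 of the 95 passed: Depp1, a FOXO target, rose by 0.68 ± 0.16 (adjusted p = 0.0451 by limma). In DBA/2J none did.

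Among the ligands and binding proteins, Ins2 (16.71 to 17.08 log2 CPM as means of strain and diet) and Ins1 (15.31 to 15.95) were the most abundant. Per length, Igf2 (median 1.21 CPM per kb) lay above Igf1 (0.173), and of the binding proteins Igfbp7 (160) and Igfbp3 (29.2) lay highest, followed by Igfals (11.4), Igfbp5 (9.43), Igfbp4 (2.31) and Igfbp6 (0.764). Of the 10 genes measured in this group 4 were higher and 1 lower in DBA/2J than in C57BL/6J under RC (background 54.5%), and 4 were higher and 2 lower in BALB/cJ (background 56.3%). Igfbp5 (0.94 ± 0.13) and Igfbp4 (0.93 ± 0.18) had the largest rises of the whole pathway list in DBA/2J under RC. Under HFD Igfbp4 was 1.22 ± 0.18 and Igfbp5 1.00 ± 0.13 higher there. Igfals, the subunit that stabilizes circulating IGF complexes, was lower in BALB/cJ than in C57BL/6J by -0.88 ± 0.11 under RC. Igf2 was lower in BALB/cJ than in DBA/2J, by -0.97 ± 0.14 under RC and -0.73 ± 0.14 under HFD. In this comparison under HFD, Igf1 was higher by 0.78 ± 0.24, so that the 2 ligands of Igf1r differed in opposite directions. The stellate-cell list, with 9 of 12 markers higher, moved with it, and its part in the ligand values was not tested.

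Between strains, 62.1% of the pathway list passed in BALB/cJ minus C57BL/6J under RC and 45.3% in BALB/cJ minus DBA/2J under HFD, above the background. In the other strain comparisons the share was below it. In each comparison more called genes of the list were lower than higher. Over all genes the calls were near even, with 4047 higher and 4178 lower in BALB/cJ minus C57BL/6J under RC. The lean of the list to lower values was not tested. Of the 95 genes 17 were higher and 29 lower in DBA/2J than in C57BL/6J under RC (background 54.5%), and 23 and 26 under HFD (58.6%). For BALB/cJ minus C57BL/6J these counts were 20 and 39 under RC (56.3%) and 22 and 29 under HFD (54.5%), and for BALB/cJ minus DBA/2J they were 9 and 21 (35%) and 18 and 25 (35.1%). Pik3c2a, a class II PI3-kinase, was lower than in C57BL/6J in both strains: by -1.08 ± 0.09 in DBA/2J under RC, and in BALB/cJ it was among the 3 lowest of the list under HFD. Sgk3, an AKT-related kinase, was lower in DBA/2J than in C57BL/6J by -1.27 ± 0.09 under RC. Eif4ebp1, a repressor of translation that mTOR inactivates, was lower in BALB/cJ than in C57BL/6J by -1.22 ± 0.18 under RC and than in DBA/2J by -1.03 ± 0.18 under HFD, with Trib3, an inhibitor of AKT, at -0.99 ± 0.22 and -1.09 ± 0.22. The FOXO target list had 2 of 22 genes higher and 10 lower in DBA/2J than in C57BL/6J under RC, and 5 higher and 11 lower in BALB/cJ, with medians of -0.20 and -0.20 beside 0.00 over all genes. Genes of that list that were lower include Txnip (-1.01 ± 0.10 in DBA/2J), while Mafa, a beta-cell transcription factor, was higher in both strains (0.87 ± 0.16 and 1.06 ± 0.16). Under HFD the list had 5 genes higher and 10 lower in DBA/2J, with a median of -0.07, where Foxo1 was lower by -0.34. In BALB/cJ under HFD it had 7 higher and 4 lower, with a median of -0.01, where Foxo1 was lower by -0.33. Whether the levels of the list follow Foxo1 was not tested.

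Other genes of this list at the ends of a comparison were, under RC, Sgk1 (0.71 ± 0.08) and Pik3cg (-0.98 ± 0.14) in BALB/cJ minus C57BL/6J, and Sgk3 (0.72 ± 0.08), Klf2 (0.72 ± 0.15), Gadd45a (0.54 ± 0.11) and Cdkn1a (-1.05 ± 0.16) in BALB/cJ minus DBA/2J. Under HFD they were Pdk4 (0.66 ± 0.15) and Bcl6 (-1.23 ± 0.25) in DBA/2J minus C57BL/6J, and Depp1 (0.90 ± 0.16), Klf2 (0.88 ± 0.15) and Bcl6 (0.87 ± 0.25) in BALB/cJ minus DBA/2J.

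The genes whose pattern over the 69 libraries was most like that of each member were found by Pearson's r after the mean of each strain was subtracted. The libraries share strain, depth and cell makeup, so the values describe these libraries only. Insr was nearest to Lnpep and Med13 (r = 0.89 each), Akt1 to Git1 (0.90) and Ddr1 (0.87), Foxo1 to Aldh6a1 (0.83) and Tspan2 (0.80), and Akt2 to Smarca4 (0.81) and Ap2a1 (0.80). Igf1r was nearest to Herc2 (0.79) and Utp20 (0.78), Pik3r1 to Ppat (0.73) and Gtf3c4 (0.64), Irs1 to Plagl2 (0.70) and Zbtb43 (0.66), Grb10 to Klhl13 (0.69) and Mamld1 (0.62), and Irs2 to Auts2 (0.64) and Ptprf (0.62). Among the members themselves, Akt1 and Akt2 (0.69), Insr and Foxo1 (0.65), Insr and Irs1 (0.59) and Insr and Igf1r (0.53) ran together. Insr ran against Akt1 (-0.54) and Akt2 (-0.43). Grb10 and Foxo1 had an r of 0.12.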

How the data were processed

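Islet RNA of 72 mice was labelled, and 69 libraries had a column. The labels spell 1 strain C56BL/6J, read here as C57BL/6J, and give days 5, 13 and 33 where the series text gives 13 for the last. Per the submitters' processing notes the tools were STAR 2.5.3a, HTSeq 0.9.1 and edgeR on GRCm38; the strand setting of the counting is not given in the sources used here. The deposited values are log2 CPM, normalized by the authors. Whole reads were recovered for 100% of low values (tolerance 0.05 reads). Libraries were sequenced single-end after stranded mRNA preparation.

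The log2 values were fitted with limma 3.58.1 in R 4.3.3 (trend, 18 group means, all 14604 genes), with Benjamini-Hochberg adjusted p under 0.05 as the threshold. The fit was tested on simulated data. The labels tie each library to 1 mouse. Replicate numbers follow sample order. CPM per kb used merged exons of the GRCm38 annotation, which matched 14589 identifiers. Upstream sequences are RefSeq's. All 9 members were described in every comparison. Of the pathway list, up to 3 genes past the threshold at each end of a comparison of diet over days or of strain were named, and for each member the 2 genes of highest r (mean of at least 3 log2 CPM). Members and lists were chosen with earlier results of these data known. Alternatives were voom on recovered reads, log2(CPM + 1), a filter on low means, quantile normalization, array weights, the number in the sample title or 4 cell type scores as covariates, subsets of libraries, each library left out and, added after seeing the data, the title number as a block within a strain.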

Additional observations from a re-analysis of the deposited data

Results flagged for a closer look

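In 15 groups of 4 libraries, 135 sets of values were examined for 1 library far from the other 3, by the gap to the nearest divided by the range (Dixon's 95% value, 0.829). Chance marks about 1 such set in 20, and 4 of the 135 sets were marked here, a smaller share than that. Insr, the insulin receptor, stood at 5.94 log2 CPM in DBA/2J RC day 13 replicate 3, against 6.50 to 6.60 in the other libraries of that group. Igf1r stood at 7.37 in DBA/2J HFD day 5 replicate 1, against 6.47 to 6.61. Akt1 stood at 7.40 in DBA/2J RC day 5 replicate 2, against 7.20 to 7.22. Foxo1 stood at 6.35 in BALB/cJ RC day 5 replicate 1, against 6.07 to 6.10.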

How the results depend on the processing

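None of the 21 calls of a member changed sign in any alternative, and 17 passed in each of the 69 removals of 1 library. Foxo1 in DBA/2J minus C57BL/6J under HFD and in BALB/cJ minus C57BL/6J under RC, and Akt2 in BALB/cJ minus DBA/2J under both diets, passed in every alternative run. With the 4 cell type scores as covariates, members called went to 0 for diet on average, to 0 (from 5) and 1 (from 5) for DBA/2J minus C57BL/6J under RC and HFD, to 1 (from 3) and 0 (from 2) for BALB/cJ minus C57BL/6J, to 1 (from 2) for BALB/cJ minus DBA/2J under HFD, and to 1 (from 0) for the change of the diet effect between days. With the title number they went to 0 for diet on average, to 1 for DBA/2J minus C57BL/6J under HFD and to 1 for BALB/cJ minus C57BL/6J under HFD. Without the 9 libraries of outlying scores, Irs2 in DBA/2J minus C57BL/6J under RC did not pass (adjusted p = 0.0603 by limma). Irs1 in that comparison under HFD did not pass either (adjusted p = 0.0851 by limma). Without those 9 libraries, and without day 5, 13 or 33, the count for diet on average was 0 each time. Without day 5 it was 2 for DBA/2J minus C57BL/6J and 1 for BALB/cJ minus DBA/2J, both under HFD, and without day 13 it was 1 for BALB/cJ minus DBA/2J under RC. Quantile normalization left 1 for BALB/cJ minus DBA/2J under HFD, and gave 4 and 3 for BALB/cJ minus C57BL/6J under RC and HFD. Array weights raised the calls over all genes too, to 20.9% for diet on average, and gave 2 members for diet on average, 1 for diet in C57BL/6J, 13 for single days (7 in DBA/2J at day 5, where 41% of all genes passed) and 6 for the change between days, with 6 more strain calls (background 42.4% to 66%). The cause was not tested. With 1 library left out, the counts ran from 0 to 2 for diet on average, 4 to 5 and 4 to 6 for DBA/2J minus C57BL/6J (RC, HFD), 3 to 4 and 2 to 5 for BALB/cJ minus C57BL/6J, 2 to 3 and 2 to 2 for BALB/cJ minus DBA/2J, 0 to 2 for single days and 0 to 1 for the change between days. Title numbers recur across the diets of a strain and day in 21 pairs of libraries, and the labels do not say what they mark. In C57BL/6J at day 5 the diets shared no number, and every HFD number was below every RC number. In DBA/2J the numbers of the days did not overlap. A call that ended with the title number as a covariate therefore does not tell number from diet or day. Deviations from the group means correlated at -0.49 to 0.52 within pairs (median 0.05, over 0.1 in 8 pairs). Of 42 libraries, 14 correlated best with their own number. What the libraries of a pair share beyond the number cannot be told from these values. With the title number as a replicate block (correlation 0.057), chosen after seeing the data, no call of a member changed. The counts of members called were 1 for diet on average, and 5 and 5, 3 and 2, and 3 and 2 for the strain comparisons above.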
